A study of Mus musculus with 8 samples.

Results

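The olfactory receptor genes that left reads in the retina were examined in whole-retina RNA of germ-free mice, animals raised without any microbes. Members were the gene symbols made of Olfr and a number that had at least 10 counts summed over the 8 libraries, and 60 of the 1406 such symbols in the tables met this rule, which is 4.27%. The rule used the counts themselves, so a high or low total is a description of the choice. The GF_HFD group held 4 mice (numbers 13, 15, 16 and 19) and the GF_ND group 4 mice (numbers 9, 10, 11 and 12). All were adult male C57B1/6 mice without a microbiome, kept on a 12 h light cycle. From 7 weeks of age the GF_HFD mice had free access to a high-fat diet with 23% saturated fat and the GF_ND mice to a normal diet, in both cases for 8 weeks, and retinas were taken at 15 weeks. Each library is 1 retina of 1 mouse, and with no mouse that carried microbes, an effect of the diet cannot be told apart from one that needs the germ-free state.

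Olfactory receptors are G protein-coupled receptors with a coding sequence in a single exon, and they form the largest gene family of the mouse. In the olfactory epithelium each sensory neuron uses 1 receptor gene from 1 allele, and odorant binding activates the G protein subunit Gnal, adenylate cyclase Adcy3 and a cyclic nucleotide-gated channel. Some receptors are known from other tissues of the mouse, such as Olfr78 in the carotid body and in vessels of the kidney and Olfr16 in sperm, and Olfr78 and Olfr558 respond to short-chain fatty acids.

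A short motif of aspartate, arginine and tyrosine (DRY) lies at the inner end of the third transmembrane segment of these receptors and is shared by most of the family. It was found in the annotated coding sequence of 45 of the 57 members with a coding sequence, and 10 others had the first 2 residues followed by another residue. The windows of 30 bases below, from GENCODE vM21 transcripts on GRCm38, belong to 12 members on which the levels and the diet comparison turn. The capitals mark the 3 codons of the motif, which start at codon 120 to 126 of each coding sequence.
Olfr690: atggcatttGACCGATATgtggctatttgt
Olfr691: atggcctttGACCGCTTTatagccatctgt
Olfr460: atggccgtgGATCGTTATgtagctgtctgt
Olfr543: atggctctaGATCGCTATgtggccatttgc
Olfr544: atggctctaGATCGCTATgtggctatctgc
Olfr545: atggctctaGATCGCTATgtggctatctgc
Olfr78: atggcctttGACCGGTACgtggctatctgc
Olfr558: atggcctttGACCGCTATgtggccatttgc
Olfr31: atggcttatGATCGTTATgtggccatctgc
Olfr55: atgggttatGACCGCTACgtggccatctgt
Olfr921: atggcctatGATCGCTATgttgcaatctgt
Olfr1417: atggcctatGACCGGTTTgtggccatctgt
The windows of the neighbours Olfr544 and Olfr545 are the same, while those of Olfr690 and Olfr691 differ in the motif itself. Over the whole coding sequence, Olfr544 and Olfr545 matched at 90.9% of aligned positions, Olfr690 and Olfr691 at 67.6%, and Olfr460 and Olfr461 at 76.9%.

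The libraries held 39258006 to 44357518 counts, and the members took 8390 of them in all. Lens transcripts, from the tissue in front of the retina, made up 5.64% of counts in GF_ND mouse 11 and 1.07% in GF_HFD mouse 19, against 0.0159 to 0.152% in the other 6 libraries (9 marker genes). The summed level of the rod markers, the most abundant cells of the retina, was 57049 to 73689 CPM (counts relative to the TMM-scaled library total) in GF_HFD and 33575 to 56123 CPM in GF_ND libraries. Summed pigment epithelium markers reached 1463 CPM in GF_ND mouse 11 and were 36.6 to 519.6 CPM in GF_HFD and 59.0 to 107.7 CPM in the other GF_ND libraries. Summed erythroid markers were 16.5 to 38.5 CPM in GF_HFD and 6.60 to 12.7 CPM in GF_ND libraries without overlap. Of the 7 erythroid genes, 5 were higher and 0 lower at an edgeR unadjusted p under 0.05 (2.85% of all genes tested were higher). Summed fibroblast markers overlapped, at 5.35 to 264 CPM in GF_HFD and 4.74 to 152 CPM in GF_ND libraries. Of the 7 fibroblast genes, 3 were higher and 0 lower at that p.

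Most members were barely detected. The median member had 33 counts over all libraries, 39 members had under 50, and 20 had under 20. Of the remaining family symbols, 1166 had 0 counts and 180 had 1 to 9. A total of 0 still allows an expected total of up to about 3 counts over all libraries, from counting error only. At the edge of the rule, 5 members had 10 or 11 counts, among them Olfr651 and Olfr685, and 12 symbols outside it had 8, among them Olfr45 and Olfr15. A count in every library was found for 23 members.

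Only 3 members averaged above 1 CPM, and 31 averaged under 0.1 CPM. The most abundant was Olfr1372-ps1, a transcribed pseudogene without a receptor coding sequence on chromosome 11 (52154722 to 52168159, minus strand, up to 3 exons), which took 41.5% of all member counts. It had 392, 376, 401 and 297 counts in GF_HFD mice 13, 15, 16 and 19, and 416, 598, 288 and 714 in GF_ND mice 9, 10, 11 and 12. The GF_ND libraries held both the lowest and the 3 highest of these counts. Olfr1417, a coding member on chromosome 19 (11826803 to 11839219), had 134, 103, 126 and 125 counts in GF_HFD and 143, 183, 60 and 181 in GF_ND libraries. Olfr461 on chromosome 6 (40542171 to 40555050) had 74, 77, 75 and 86 counts in GF_HFD and 114, 110, 57 and 103 in GF_ND libraries. All 3 genes were lowest in GF_ND mouse 11, where lens transcripts were most frequent, and their 4 GF_HFD counts lay within the GF_ND range.

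Further coding members among the 12 with the highest CPM had lower counts. Olfr1564 had 41, 36, 14 and 11 counts in GF_HFD and 45, 28, 28 and 23 in GF_ND libraries, and Olfr1420 had 11 to 26 and 19 to 26. Olfr920 had 9 to 22 counts in GF_HFD and 7 to 36 in GF_ND libraries. Olfr1393, a receptor also known from mouse kidney, had 21, 4, 23 and 8 counts in GF_HFD and 18, 14, 13 and 9 in GF_ND libraries. Olfr750 had 22, 14, 12 and 13 counts in GF_HFD and 21, 0, 23 and 28 in GF_ND libraries, so that a gene with 133 counts in all was still missing from GF_ND mouse 10. The diets overlapped for each of these genes.

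Levels between genes were compared as CPM per kb of annotated exon, since a longer gene collects more reads. Olfr1372-ps1 led with 0.879 ± 0.110 in GF_HFD and 1.24 ± 0.469 CPM per kb in GF_ND libraries, followed by Olfr1417 with 0.802 ± 0.0877 and 0.957 ± 0.394 CPM per kb (SD, n = 4 each). These neighbours in the order lay within each other's spread. Olfr856-ps1, a pseudogene with 11 to 41 counts in GF_HFD and 18 to 37 in GF_ND libraries, came next with 0.709 CPM per kb over all libraries, then Olfr543 with 0.541 and Olfr461 with 0.484. The median member was at 0.0276 and the lowest, Olfr804, at 0.00533 CPM per kb. The plot of levels per length shows a short head and a long tail.

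**Figure D1:**
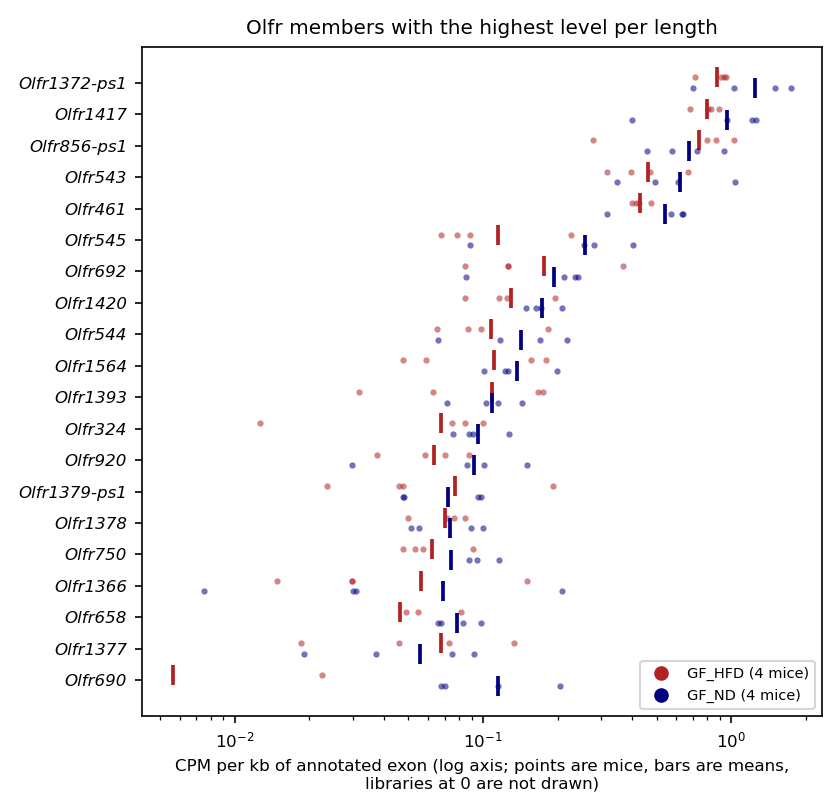
CPM per kb of annotated exon (log axis) of the 20 members with the highest level per length, with a point per mouse (GF_HFD above, GF_ND below) and a bar at each group mean, libraries at 0 not drawn. Olfr1372-ps1 (0.879 in GF_HFD and 1.24 in GF_ND) and Olfr1417 lead, and the the values of the 2 diets overlap for each of these genes but Olfr690 at the bottom, where 3 GF_HFD libraries are at 0.

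The reads assigned to a member need not come from a receptor transcript. Exons of 5 members overlap an exon of a gene outside the family (Olfr558 and Gm45688, Olfr482 and Gm44870, Olfr18 and Gm45815, Olfr56 and Ifi47, Olfr31 and Gm48860), Olfr78 and Olfr560 overlap each other, and Olfr1372-ps1 lies within the span of Gm26551. The strand setting of the counting is not given in the sources used here, so counts of these genes are uncertain. Stretches of 100 bases that also occur in an annotated transcript of another gene were found in 33 members, and they made up over 10% of the sequence in 9, with 53.6% in Olfr239, 38.9% in Olfr55 and 18.1% in Olfr31. The other 27 members, including Olfr690, Olfr691, Olfr460, Olfr461, Olfr543 and Olfr921, shared none.

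Members lay in groups along the chromosomes. With consecutive starts at most 1 Mb apart, 47 of the 60 members fell into 14 groups and 13 lay alone. With at most 100 kb there were 15 groups with 40 members. Chromosome 7 carried 18 members of its 292 family genes and chromosome 11 carried 11 of 104, while chromosome 2, with 369 family genes, carried 1. The largest group, of class I receptors on chromosome 7 (104550133 to 105369355), held 9 members among 42 family genes, and 24 of those 42 had 0 counts. The next group on chromosome 7 (102476579 to 102759471) held Olfr543, Olfr544, Olfr545, Olfr558, Olfr78 and Olfr560 among 20 family genes, of which 12 had 0 counts.

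Members were placed closer to expressed genes outside the family than the other receptor genes were. A gene with a mean of at least 1 CPM lay within 50 kb of 36 of the 60 members (60%), of 39 of the 180 genes with 1 to 9 counts (21.7%) and of 88 of the 1165 annotated genes with 0 counts (7.55%). The median distance was 29.3 kb for members, 130 kb for genes with 1 to 9 counts and 324 kb for genes with 0. Olfr1417 lies 7.40 kb from Stx3, which encodes the syntaxin of photoreceptor ribbon synapses and averaged 779 CPM. Stx3 is on the same strand, downstream of Olfr1417. Olfr692 lies 1.86 kb from Fam160a2, and Olfr543 lies 6.81 kb from Rrm1, a ribonucleotide reductase subunit, both on the other strand. Members also had longer annotated exons, with a median of 3635 bases against 2385 for genes with 0 counts, and 57 of the 60 had more than 1 exon, against 76.8% of genes with 0 counts. These features are descriptions, since neighbours share their surroundings and a longer gene passes a count minimum more easily. An expressed gene upstream on the same strand lay within 50 kb of 13 of the 60 members. Whether reads of a member came from its neighbour was not tested.

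**Figure D2:**
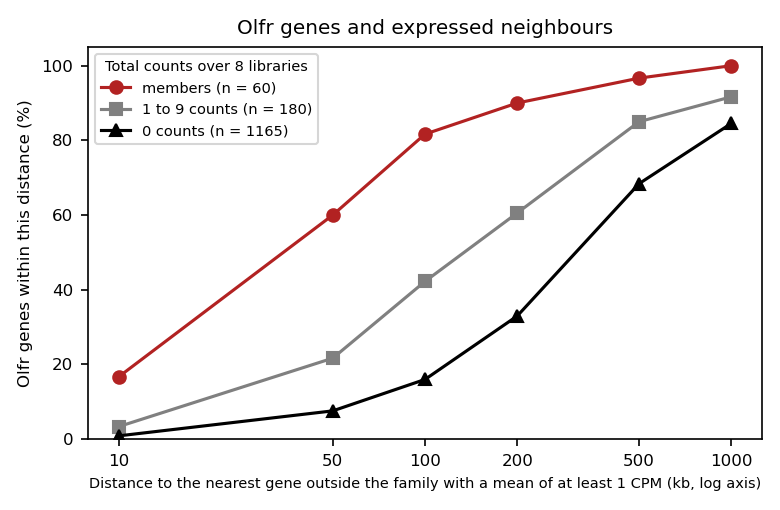
Share of receptor genes (percent) with an expressed gene outside the family within the distance on the x axis (kb, log axis), for members (n = 60), genes with 1 to 9 counts (n = 180) and annotated genes with 0 counts (n = 1165). At 50 kb the shares are 60%, 21.7% and 7.55%.

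The summed level of the members differed more among GF_ND than among GF_HFD mice. It was 22.8, 20.4, 22.1 and 18.96 CPM in GF_HFD mice 13, 15, 16 and 19, and 25.8, 34.3, 20.2 and 36.0 CPM in GF_ND mice 9, 10, 11 and 12, or 21.1 ± 1.73 and 29.0 ± 7.41 CPM (SD, n = 4 each). GF_ND mouse 11 fell among the GF_HFD mice, and the other 3 GF_ND mice were above all of them. Without Olfr1372-ps1 the sum was 13.5, 11.4, 12.9 and 11.9 CPM in GF_HFD and 15.7, 19.6, 13.3 and 18.9 CPM in GF_ND libraries, with the same mouse inside the GF_HFD range. The rod and erythroid sums given above were higher in every GF_HFD than in every GF_ND library, and their part in the members' levels was not tested. In bulk RNA, fewer cells of a type and less RNA per cell cannot be told apart. No test was made on the sum, since the members were chosen by the counts that form it.

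**Figure D3:**
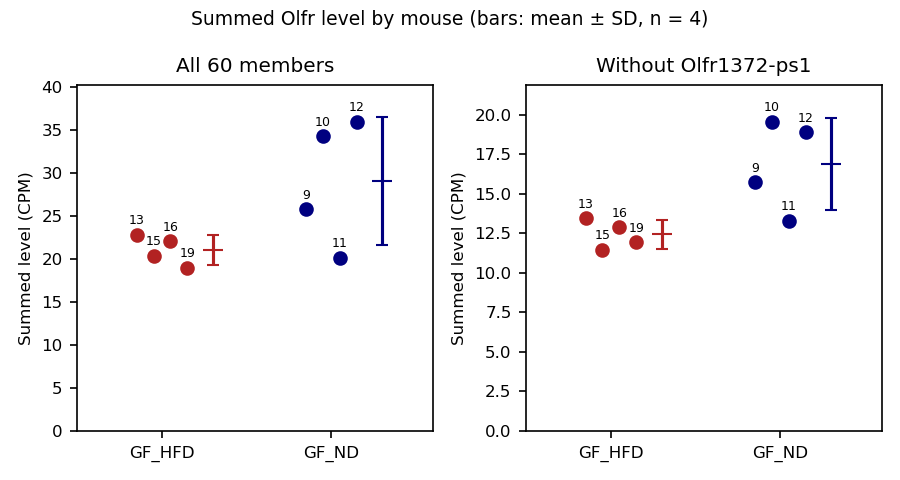
Summed level of all 60 members (left) and without Olfr1372-ps1 (right) in CPM by mouse, GF_HFD left of GF_ND, with mouse numbers over the points and mean ± SD beside them (n = 4). GF_ND mouse 11, at 20.2 and 13.3 CPM, is the GF_ND mouse within the GF_HFD range.

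Some members were counted mainly in 1 library. Olfr54 had 0, 0, 0 and 2 counts in GF_HFD and 0, 0, 26 and 0 in GF_ND libraries, so that GF_ND mouse 11 held 92.9% of its counts. Olfr718-ps1 had all 10 of its counts and Olfr10 had 10 of 11 in GF_ND mouse 10. In that library 14 of the 60 members had their highest raw count, against 11 each in GF_ND mice 11 and 12. A tie was given to 1 library. The same library also had counts in 68 family symbols below the rule, against 17 to 36 in the other 7. Olfr1366, singled out after its values were seen, had 4, 4, 21 and 2 counts in GF_HFD and 1, 4, 28 and 4 in GF_ND libraries, high in GF_HFD mouse 16 and GF_ND mouse 11. Such a value rests on 1 animal of a group.

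No member passed the test for the diets. With the quasi-likelihood test of edgeR on TMM-scaled counts, 0 of 26900 genes were called at a Benjamini-Hochberg adjusted p under 0.05 (percent called 0; smallest adjusted p = 0.649), while DESeq2 called 8 genes higher and 38 lower and limma-voom called 0. None of those calls was a member. At an unadjusted p under 0.05, 7 members were lower in GF_HFD (4.53% of all genes tested) and 0 were higher (2.85% of all genes). These were Olfr690, Olfr31, Olfr857, Olfr691, Olfr55, Olfr921 and Olfr460. Their number was 11 without GF_ND mouse 11, where 10.8% of all genes were lower and 11.9% higher. It was 3 without GF_HFD mouse 15 and 4 without GF_HFD mouse 16, GF_HFD mouse 19 or GF_ND mouse 10, where 2.94 to 3.65% of all genes were lower. Under the thresholds of the study, a p under 0.01 with a log2 fold change beyond 1, Olfr690 was the member that remained with edgeR (0.372% of all genes were lower by that rule and 0.0855% higher). By the same rule 3 members remained with limma-voom (0.338% of all genes lower) and 0 after filterByExpr, which keeps 14 members (0.415%). With 1 mouse left out, 4 remained without GF_HFD mouse 13 (0.368%), 3 without GF_ND mouse 11 (270 of all 26900 genes lower), 2 without GF_HFD mouse 16 (0.316%) and 0 without GF_ND mouse 12 (0.245%). Fitted log2 fold changes of GF_HFD over GF_ND were negative for 45 of 60 members, with a median of -0.42, against 53.7% negative and a median of -0.03 over all genes tested. For the 46 members with under 100 counts the median was -0.61, with 33 negative, against -0.28 and 63.5% negative over the 8485 tested genes in that range. For the 14 members with at least 100 counts it was -0.37, with 12 negative, against 0.00 and 49.2% negative over such genes. A member that passed the count rule through the group where it was high had to differ, so these counts describe the members and support nothing.

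**Figure D4:**
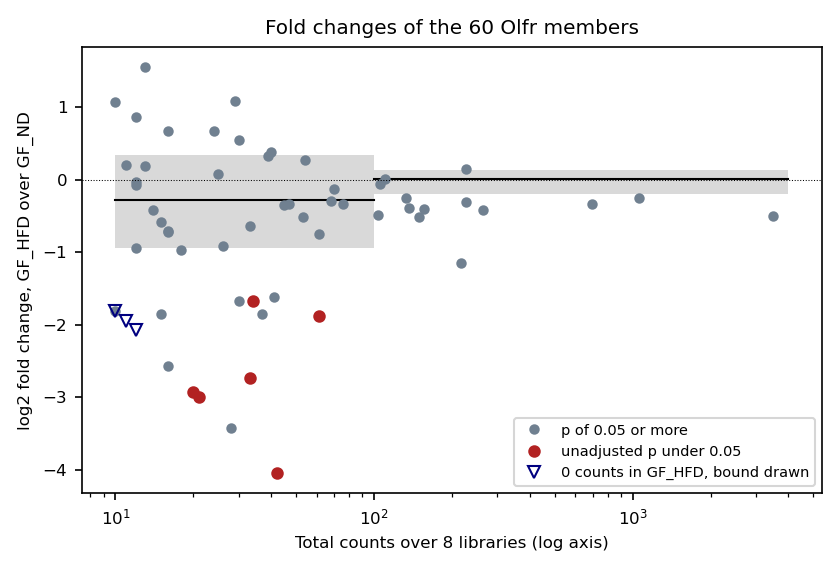
Log2 fold change of GF_HFD over GF_ND against total counts (log axis) for the 60 members, with grey bands for the middle 50% of all tested genes under and over 100 counts and black lines at their medians (-0.28 and 0.00). Of the 7 members at an unadjusted p under 0.05, 6 are the filled red points and Olfr857 is among the 3 open triangles, genes with 0 counts in GF_HFD drawn at their bound.

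Olfr690 and Olfr691 are neighbouring class I receptors on the minus strand of chromosome 7 (105328225 to 105334104 and 105335509 to 105342270), within the largest group. Olfr690 had 0, 0, 0 and 2 counts in GF_HFD mice 13, 15, 16 and 19 and 10, 6, 6 and 18 in GF_ND mice 9, 10, 11 and 12. Every GF_HFD library was below every GF_ND library, and 3 of the 4 had no count. The ratio of scaled counts was 0.0473 (95% exact interval 0.00554 to 0.183, counting error only), with a fitted log2 fold change of -4.05 (SE 1.03, edgeR adjusted p = 0.649, exact permutation p = 0.0286, two-sided, the smallest that 4 against 4 allows). Olfr691 had 2, 0, 0 and 0 counts in GF_HFD and 4, 7, 2 and 6 in GF_ND libraries. GF_HFD mouse 13 and GF_ND mouse 11 both had 2, so the groups touched (ratio 0.0997, interval 0.0113 to 0.413, log2 fold change -2.99, SE 1.18). Their nearest expressed gene, Fam160a2, had a log2 fold change of -0.14 (SE 0.13). Olfr690 and Olfr691 passed the count rule only through GF_ND. The ratios, intervals and permutation p given for them therefore describe the choice and support nothing.

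The 9 members of this group together had 27, 18, 27 and 26 counts in GF_HFD and 42, 54, 32 and 59 in GF_ND libraries. Of the group totals of 98 and 187 counts, Olfr690 gave 2 and 40, and the members were not alike. Olfr689 had 0 to 6 counts in GF_HFD and 2 to 8 in GF_ND libraries, and Olfr658 had 0 to 10 and 8 to 12. Olfr692 had 4 to 18 and 4 to 11 counts, and Olfr686 had 1 to 8 and 0 to 5. No test was made on the group sum.

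Olfr460 on chromosome 6 (40569487 to 40574343, plus strand) lies beside Olfr461 and is transcribed from the other strand. It had 4, 0, 0 and 0 counts in GF_HFD and 5, 10, 4 and 10 in GF_ND libraries, and GF_HFD mouse 13 equalled the lowest GF_ND count. Its log2 fold change was -2.74 (SE 1.13, exact permutation p = 0.0571), while Olfr461, with 696 counts in all against 33, had -0.34 (SE 0.25). Whether the neighbours differ in their change was not tested. Olfr460, Olfr690 and Olfr691 are the members named by the study, which names Limma among its tools and listed each of them as past its thresholds. The study selected them on the same libraries, so their direction here is not independent evidence. Each also passed the count rule only through GF_ND, so the permutation p of Olfr460 supports nothing.

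Among the other low members, Olfr31 on chromosome 14 had 4, 3, 2 and 4 counts in GF_HFD and 10, 20, 4 and 14 in GF_ND libraries (log2 fold change -1.88, SE 0.61). Its lowest GF_ND value was again mouse 11, and its exons overlap Gm48860. Olfr55 on chromosome 17 had 3, 1, 2 and 2 counts in GF_HFD and 8, 8, 6 and 4 in GF_ND libraries (-1.68, SE 0.66). The groups did not overlap, but 38.9% of its sequence also occurs in Olfr239 or Olfr1564. Olfr921 on chromosome 9 had 0, 0, 2 and 0 counts in GF_HFD and 2, 4, 8 and 4 in GF_ND libraries (ratio 0.105, interval 0.0118 to 0.439). Its highest GF_HFD count equalled its lowest GF_ND count, and only the scaled levels did not overlap. Olfr857 had 0 counts in every GF_HFD library and 0, 4, 4 and 4 in GF_ND libraries. This is at least 4.22-fold lower in GF_HFD if the GF_HFD group is set to 3 counts in all. Olfr55, Olfr921 and Olfr857 passed the count rule only through GF_ND. Their fold change, ratio and bound therefore describe the choice and support nothing.

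In all, 3 members had groups that did not overlap on scaled levels, each lower in GF_HFD (Olfr690, Olfr55 and Olfr921). Of all genes, 2.54% were lower and 2.29% higher in this way. All 3 passed the count rule only through GF_ND, so their number supports nothing. The number depended on single mice: it was 11 without GF_ND mouse 11, all lower, where 10.4% of all genes were lower and 9.47% higher without overlap. It was 10 without GF_HFD mouse 13 (9 lower and 1 higher, against 4.47% and 4.05% of all genes) and 6 without GF_HFD mouse 19, all lower (4.16%). Without GF_ND mouse 11, edgeR called 79 genes higher and 397 lower in GF_HFD, and again 0 members. Even counts made up 56.3 to 84.6% of member counts between 1 and 30, against 63.8 to 68.3% over all genes. Where both ends of a read pair were counted, a count of 2 is 1 fragment and the intervals above are too narrow.

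**Figure D5:**
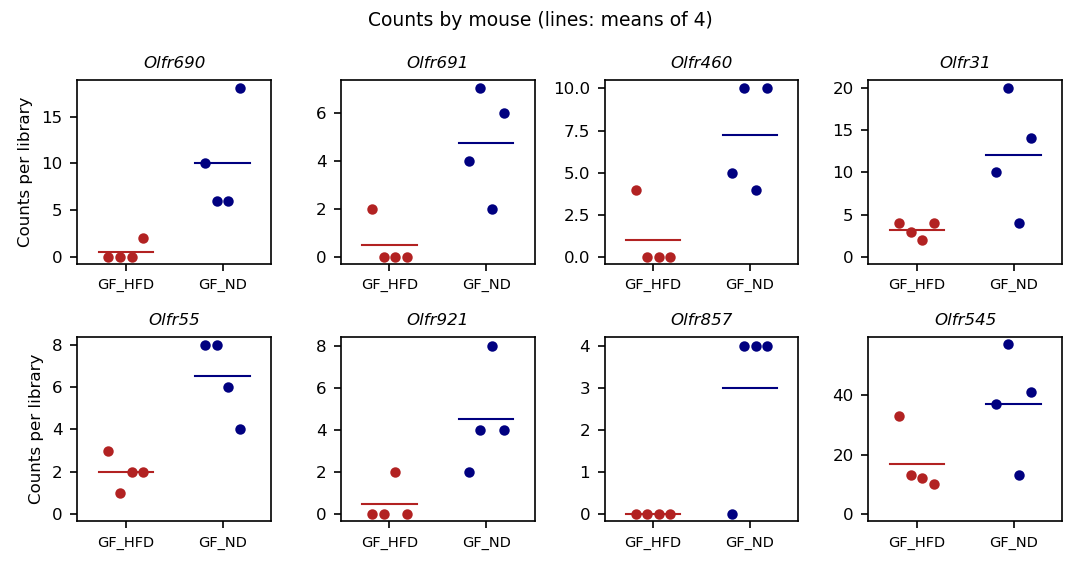
Counts per library of Olfr690, Olfr691, Olfr460, Olfr31, Olfr55, Olfr921, Olfr857 and Olfr545, GF_HFD left of GF_ND, with a point per mouse and a line at the mean of 4. Olfr690 has at most 2 counts in a GF_HFD library and at least 6 in a GF_ND library, while the points of Olfr545 mix.

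The second group on chromosome 7 holds Olfr544, Olfr78 and Olfr558, for which ligands are known. Olfr543 had 24, 41, 20 and 29 counts in GF_HFD and 21, 36, 30 and 63 in GF_ND libraries, with a log2 fold change of -0.43 (SE 0.39). Olfr545 had 33, 13, 12 and 10 counts in GF_HFD and 37, 57, 13 and 41 in GF_ND libraries, and its log2 fold change of -1.15 (SE 0.52) came with an exact permutation p of 0.0571. GF_HFD mouse 13 and GF_ND mouse 11 were the mice that closed the gap. Olfr544, a receptor for azelaic acid known from liver and fat of the mouse, had 25, 12, 14 and 9 counts in GF_HFD and 23, 29, 9 and 16 in GF_ND libraries (-0.40, SE 0.47). It is close in sequence to Olfr545, and 4.04% of its 100-base stretches are shared with it.

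The fatty acid receptors Olfr78 and Olfr558 showed no difference that could be detected at this depth. Olfr78 had 8, 14, 10 and 2 counts in GF_HFD and 16, 8, 8 and 10 in GF_ND libraries (log2 fold change -0.34, SE 0.58), and its exons overlap those of Olfr560. Olfr558 had 4, 11, 6 and 2 counts in GF_HFD and 0, 9, 6 and 2 in GF_ND libraries (0.39, SE 0.94). Its sign turned without GF_HFD mouse 15 or GF_ND mouse 9.

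The genes that serve these receptors in olfactory neurons were mostly either retinal genes in their own right or near 0. Of 15 tested genes of olfactory signal transduction, 2 were higher in GF_HFD at an unadjusted p under 0.05 (Gnb1, the beta subunit also used by rods, and the channel Ano2), 1 was lower and 0 passed adjustment. Over all genes tested, 2.85% were higher and 4.53% lower at that p. The G protein Gnal had 38.0 ± 0.757 CPM in GF_HFD and 34.3 ± 4.43 CPM in GF_ND libraries, and Adcy3 had 12.1 ± 1.35 and 13.2 ± 2.64 CPM (SD, n = 4 each). The 1 lower gene of these 15 was the channel subunit Cnga2, which defines olfactory neurons together with Omp. It had 0 to 1 counts in GF_HFD and 2 to 6 in GF_ND libraries (log2 fold change -2.57, SE 1.07, edgeR adjusted p = 0.649). Omp had 0 to 4 and 2 to 6 counts, 20 in all. The receptor chaperones Rtp1 and Rtp2 had 14 and 2 counts over all libraries. Of the 8 markers listed for olfactory neurons, these 4 were at or near 0. The other 4 were not, with 10773 counts of Gng13, which ON bipolar cells also use, 1016 of Gfy, 219 of the channel subunit Cnga4 and 86 of Stoml3.

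Of 14 tested genes of receptor trafficking and choice, 0 were higher and 1, the transcription factor Ebf4, was lower at an unadjusted p under 0.05 (-0.43, SE 0.16). Over all genes tested, 2.85% were higher and 4.53% lower at that p. The median log2 fold change of the 14 genes was 0.06, near the -0.03 of all genes. Gfy, a gene of olfactory neurons, had 43 to 96 counts in GF_HFD and 56 to 250 in GF_ND libraries. Its log2 fold change was -1.46 (SE 0.44, edgeR unadjusted p = 0.00772, adjusted p = 0.649). In this fit Gfy was past the study's thresholds, as were 0.372% of all genes in the lower direction. The study does not list Gfy among its lower genes. Of the 7 tested olfactory neuron markers, 4 had negative and 3 positive fold changes with a median of -0.51. At an unadjusted p under 0.05, 2 of them (Gfy and Cnga2) were lower and 0 higher, where 4.53% of all genes were lower and 2.85% higher. Cnga2 had 16 counts in all. The part of these markers in the members' levels was not tested.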

How the data were processed

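Whole-retina RNA of 4 GF_HFD and 4 GF_ND mice was sequenced as 100-bp read pairs. Per the study and the submitters' processing notes, the authors aligned reads with STAR 2.4.2 to GRCm38, assigned them to genes of Gencode vM23 using featureCounts (Subread 1.4.6-p1), and deposited a table of unscaled raw counts for each library. Positions, exon lengths and shared sequences are those of GENCODE vM21, which held 1405 of the 1406 Olfr symbols.

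Members and lists were chosen with earlier results of these data known. Genes named are the members named by the study, the 12 with the highest CPM, those with the smallest p, those whose groups did not overlap, members of the 2 largest groups and those counted mainly in 1 library. Olfr1366 was added after its values were seen.

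Genes with at least 10 counts were tested with edgeR 4.0.16 in R 4.3.3 (TMM, quasi-likelihood test, Benjamini-Hochberg over 26900 genes), with DESeq2 1.42.0 and limma-voom (limma 3.58.1) as alternatives. CPM are scaled by TMM. Single genes were also compared with a two-sided exact permutation test over 70 arrangements. The tests were checked on simulated data. Other alternatives were further scalings, filters, halved counts, robust dispersion and each mouse left out. Leaving out the 2 libraries with most lens transcripts was chosen after seeing the data. The depth of 39258006 to 44357518 counts per library leaves a gene with 10 counts with a large counting error.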

Additional observations from a re-analysis of the deposited data

Results flagged for a closer look

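In 19 of 67 sets of 4 values (33 members and the summed levels, each within 1 diet), the highest or lowest mouse stood far from the other 3 on scaled levels. Chance marks about 1 in 20 such sets, and sets of mostly 0 counts are marked by any mouse with a read. Values are counts.

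In GF_HFD mouse 13, Olfr460 had 4, Olfr691 had 2, Olfr652 had 2, Olfr804 had 2 and Olfr685 had 7, with 0 in the other 3 GF_HFD mice, and Olfr545 had 33 against 10 to 13. In GF_HFD mouse 16, Olfr921 had 2 against 0, and Olfr692 had 18 against 4 to 6. In GF_HFD mouse 19, Olfr690 and Olfr54 had 2 against 0, Olfr689 had 6 against 0 to 1, and Olfr560 had 0 where the others had 2.

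In GF_ND mouse 10, Olfr718-ps1 had 10, Olfr804 had 8, Olfr651 had 5 and Olfr685 had 3, with 0 in the other 3 GF_ND mice, and Olfr10 had 10 against 0 to 1. Olfr54 had 26 in GF_ND mouse 11 against 0, and Olfr857 had 0 in GF_ND mouse 9 where the others had 4. Among the members lower at an unadjusted p under 0.05, the marked mouse was the GF_HFD mouse nearest to the GF_ND levels for Olfr460, Olfr690, Olfr691 and Olfr921.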

How the results depend on the processing

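The count of members at an adjusted p under 0.05 was 0 under every alternative run. The count at the study's thresholds, 1 here, was 0 with filterByExpr and 3 with limma-voom. It was 2 without the 2 libraries with most lens transcripts. There 0.937% of all genes were lower and 0.212% higher by that rule, against 0.372% and 0.0855% in the main fit. With each mouse left out it was 0 to 4, with 0 without GF_ND mouse 12 and 3 without GF_ND mouse 11. It was 2 without GF_HFD mouse 16 and 4 without GF_HFD mouse 13. The count of members without overlap, 3 here, was 0 with filterByExpr, which keeps 14 members, 14 without the lens-rich libraries (all lower, where 12.3% of all genes were lower and 11.7% higher) and 3 to 11 with each mouse left out. The median log2 fold change was -0.47 to -0.37 over the other scalings, filters and tools and -0.62 to -0.34 with each mouse left out. Over the 14 members that filterByExpr keeps, a smaller set, the mean summed level was 18.04 CPM in GF_HFD. Over all members it was 20.5 to 21.8 CPM in GF_HFD and 26.6 to 32.1 CPM in GF_ND with each mouse left out. Members numbered 23 with a count required in every library, and 52 to 60 with each mouse left out. The log2 fold change of Olfr558 turned to -0.13 without GF_HFD mouse 15 and -0.02 without GF_ND mouse 9 (range -0.13 to 1.05). No other log2 fold change of the 14 members followed changed sign. A filter of 10 CPM in 4 libraries left 0 members, and so none of Olfr460, Olfr690 and Olfr691. The study states a low-expression cut-off of 10 CPM, but not in how many libraries it applied. The causes of these changes, beyond fewer genes or mice, were not tested. No paired analysis was possible because the mouse numbers are not shared between the diets. Depth limits most members: with a median of 33 counts over 8 libraries, moderate differences are not detectable.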

Other observations

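In the other chemoreceptor families except taste type 1, most symbols also had under 10 counts. Of 209 vomeronasal type 1 receptor symbols, 13 had at least 10 counts, with 684 counts in GF_HFD and 783 in GF_ND libraries for the family and a median log2 fold change of -0.53. Of 122 vomeronasal type 2 receptor symbols, 22 were tested, with a median of -0.48. The family had 1296 and 1728 counts in GF_HFD and GF_ND libraries. By edgeR, 3 of its genes were lower at an unadjusted p under 0.05 (4.53% of all genes tested) and 0 passed adjustment. All 16 trace amine-associated receptor symbols had 0 counts. The 3 taste type 1 receptors were all tested, with 668 counts in GF_HFD and 737 in GF_ND libraries and a median of -0.15. Of 40 taste type 2 receptors, 3 were tested, with a median of -0.18 and 51 and 70 counts for the family.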
